A study of Danio rerio with 6 samples.

Results

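A set of 14 genes, out of 29978 listed for zebrafish embryonic hearts, is described at 48 and 56 hours post fertilization (hpf). In each, every 56 hpf pool had at most 0.5 times the normalized read count of any 48 hpf pool. Before names were left out, 17 of the 9515 genes with a 48 hpf mean of at least 200 met this (0.179%). Of the 14 genes, 7 are on a list of erythroid and heme genes and 1 is on a list of leukocyte and thrombocyte genes. The genes were chosen by their own normalized read counts in the contrast they are described for: the highest of the 56 hpf values was at most 0.5 times the lowest of the 48 hpf values, and the 48 hpf mean was at least 200. Genes named *hb*, *lin28*, *col*, *myh* or *si:* in the files were left out. Because these values selected the members, their difference between the stages is given as a description, with no test.

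RNA was sequenced from pools of dissected embryonic hearts, 3 pools at 48 hpf and 3 at 56 hpf, to compare transcription around the start of valve formation. The sample labels give the AB line for both groups. The methods of the study give *Tg(myl7:EGFP)* embryos, in which a myocardial promoter drives a fluorescent protein, so both groups would carry that transgene. The labels give no treatment, but the methods state that all animals received phenylthiourea (PTU) against pigment formation, so both groups would have had it. Of the conditions given, only the stage differs between the groups. The labels also number the pools of each stage as a separate consecutive series, whose meaning is not given. Any difference between these series cannot be told apart from the stage. No source used here says whether blood was cleared from the hearts. Reads counted on genes ranged from 14369087 to 26942838 per pool, and 3 reads, the floor under which a gene counts as undetected, were worth 2.13 to 3.99 normalized counts (counting error only). The least covered member value rested on 27 reads. All 21 myocardial genes found passed the filter on low counts. So did all 21 skeletal muscle and all 16 epidermis genes found, so detection alone does not bear out the label of heart tissue. The myocardial light chain gene *myl7* had 34007, 84528 and 103614 normalized counts at 48 hpf (replicates 1, 2 and 3, the order used throughout). At 56 hpf it had 52931, 50837 and 54314.

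The first red blood cells of the zebrafish, the primitive erythrocytes, enter the circulation as a single wave and mature while they circulate. A red cell is filled with hemoglobin, whose heme is built by a chain of enzymes from glycine and succinyl-CoA to protoporphyrin and iron, and its shape is held by a skeleton of spectrin tied to the membrane through band 3 and protein 4.1. During maturation red cells shut down much of their transcription, and in fish they keep the nucleus. Neutrophils and mast cells, the other blood cells touched on here, are leukocytes of the myeloid lineage.

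Of 9515 genes with a 48 hpf mean of at least 200, 17 passed both thresholds, which is 0.179% of them, and 3 of these were left out by name. The 3 were *hbbe3*, an embryonic beta globin 31.8-fold lower at 56 hpf, *hbz*, which the files describe as hemoglobin zeta, 3.85-fold lower, and *lin28a*, an RNA-binding protein gene, 10.8-fold lower. In the opposite direction, 207 of 10124 genes with a 56 hpf mean of at least 200 had a highest 48 hpf value of at most 0.5 times the lowest 56 hpf value. Among the 9515 genes the median ratio of the highest 56 hpf value to the lowest 48 hpf value was 1.47, and the members lay between 0.225 and 0.490, under 0.5 as the rule requires. A highest value over a lowest one tends to exceed 1 with no change between the stages. The median log2 ratio of the stage means of the 9515 genes was 0.04. The 14 members all passed the filter on low counts, and their means were 2.37- to 6.13-fold lower at 56 hpf, with a median of 3.50-fold (a log2 difference of -1.81).

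**Figure D1:**
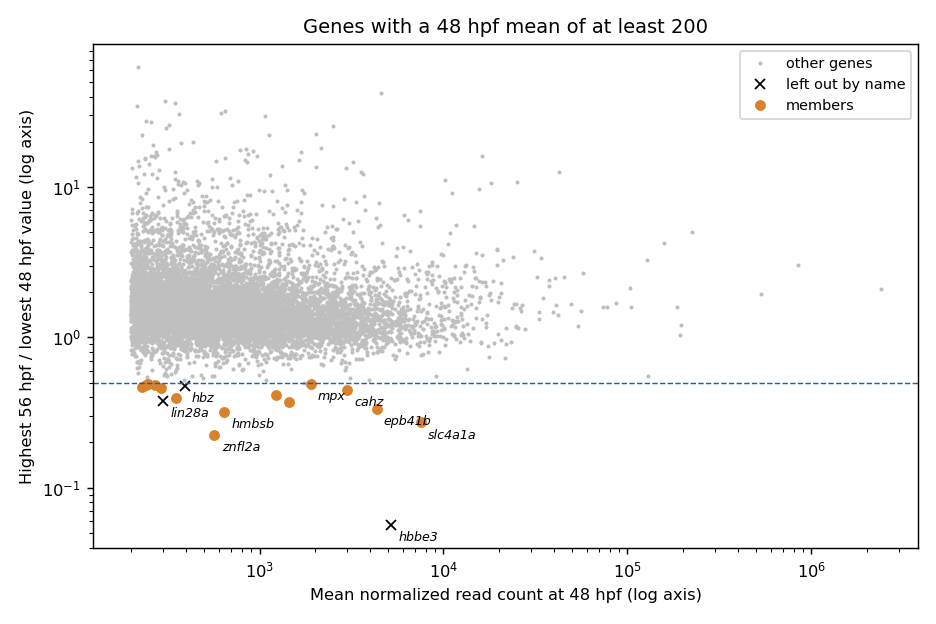
Each point is 1 of the 9515 genes with a 48 hpf mean of at least 200, placed by that mean (normalized read count, log axis) and by the highest 56 hpf value divided by the lowest 48 hpf value (log axis). The dashed line marks a ratio of 0.5: the 14 members (orange) lie under it, as the rule requires, between 0.225 and 0.490, with the 3 genes left out by name (crosses). The median of all points is 1.47.

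The membership depended on the scale and on the pools. With size factors drawn from these 6 libraries (the median-of-ratios method, RLE in edgeR) 23 genes met the rule, and leaving out replicate 1, 2 or 3 at both stages gave 124, 23 and 61 genes; leaving out pools can only lower a gene's ratio, so that the members stayed among them shows no stability. Just inside the ratio threshold were *ch25hl2* (0.490), *mpx* (0.489) and *HBQ1* (0.482). Just outside it were *flt1* (0.521), a receptor for vascular endothelial growth factor, *alas2* (0.524), the erythroid enzyme that starts heme synthesis, and *robo4* (0.524), an endothelial receptor. *flt1* had 953, 1209.6 and 1109 normalized counts at 48 hpf against 496, 454 and 318 at 56 hpf, and *robo4* had 221, 263 and 255 against 71.1, 116 and 59.8. In both genes the pools of the stages were apart, but the highest 56 hpf pool was over the limit.

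At the other threshold, the members with the lowest 48 hpf means were *blf* (231), *HBQ1* (243) and *ch25hl2* (248). The nearest genes under the minimum were *CR354540.1* (a mean of 199), *irx7* (195) and *ela2l* (191). *CR354540.1*, described in the files as an uncharacterized protein, had 193, 205 and 200.1 normalized counts at 48 hpf and 88.8, 90.02 and 32.6 at 56 hpf. *irx7*, an iroquois homeobox gene, had 312, 195 and 77.3 against 24.4, 34.3 and 27.197, and *ela2l*, an elastase-like gene, 191, 179.7 and 203 against 74.4, 26.8 and 78.9. All 3 met the ratio and missed only the minimum.

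Of the members, *alad*, *hmbsb* and *ppox* encode enzymes of heme synthesis. The product of *alad* is aminolevulinate dehydratase, which joins aminolevulinate molecules into porphobilinogen. It had 271, 279.9 and 258 normalized counts at 48 hpf and 119, 124 and 97.9 at 56 hpf, with means of 269.8 ± 10.8 and 114 ± 13.9 (SD, n = 3 pools here and for all means below). It had the smallest difference of the members, 2.37-fold, and the tightest 48 hpf pools.

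*hmbsb*, a hydroxymethylbilane synthase gene acting in the step after *alad*, had 741, 575 and 618 normalized counts at 48 hpf and 184, 116 and 95.2 at 56 hpf. The means were 644 ± 86.1 and 132 ± 46.7, a 4.89-fold difference, and replicate 1 was the highest pool at each stage. Its paralog *hmbsa* was not a member: its 56 hpf mean was 79.2% of the 48 hpf mean, against 20.4% for *hmbsb*. The methods kept only uniquely aligned reads, so reads shared by closely similar copies would be missing from both.

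*ppox* encodes protoporphyrinogen oxidase, the next to last enzyme of the pathway. Its normalized counts were 1307, 1613 and 1427 at 48 hpf and 486, 361 and 459.6 at 56 hpf. With means of 1449 ± 154 and 436 ± 66.0 it was 3.33-fold lower, and the lowest pool at 56 hpf was replicate 2, which had been the highest at 48 hpf.

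The rest of the pathway was not selected by the rule, although most of its genes were lower as well. For all 6 heme genes that are no members, the 56 hpf pools lay under the 48 hpf pools, as the rule requires of the 3 members. Non-overlap in this direction was found for 11.1% of the 20805 genes tested. That share was taken on the RLE scale, whereas the heme genes were judged on the deposited scale. The 56 hpf mean, as a percentage of the 48 hpf mean, was 28.1% for *alas2*, 46.1% for *uros*, 32.6% for *urod*, 47.5% for *cpox* and 47.8% for *fech*, whose product inserts the iron.

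Genes outside the set were tested with limma on log2(normalized count + 1), with the replicate number as a block and p-values adjusted by Benjamini-Hochberg over the 20805 genes. On that scale the median log2 difference of all genes was -0.01, and on the deposited scale 0.11. Of all genes tested, 0.211% were called lower at 56 hpf and 0.87% higher, at an adjusted p under 0.05. *alas2* had 3872, 5233 and 2703 normalized counts at 48 hpf and 820, 1077 and 1417 at 56 hpf (deposited scale). It fell, with a log2 difference of -1.94 ± 0.30 (SE) and an adjusted p of 0.0432 in limma. This call was lost in edgeR's quasi-likelihood test (0.0611) and without replicate 2 (0.433), and the alternatives ran from 4.09e-07 to 0.433. The other heme genes outside the set did not pass: adjusted p in limma was 0.0561 for *urod*, 0.0789 for *uros*, 0.105 for *cpox*, 0.105 for *fech* and 0.340 for *hmbsa*. By the likelihood ratio test of edgeR and by DESeq2 all of them except *hmbsa* were called lower (adjusted p 5.46e-05 to 0.0178), and without the block *urod* (0.0162) and *uros* (0.0324) were called too, while the highest p over the alternatives was 0.523 for *urod* and 0.937 for *hmbsa*.

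**Figure D2:**
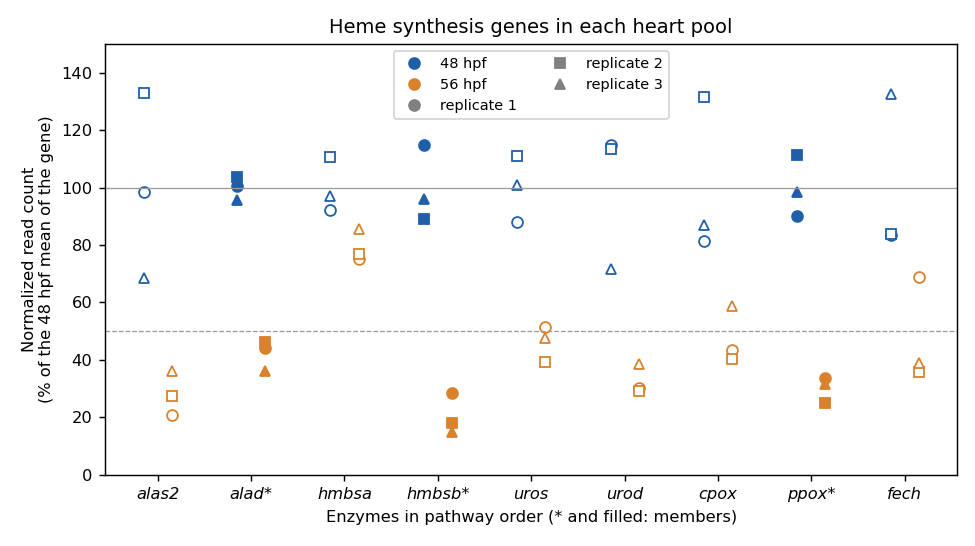
Normalized read count of the 9 heme synthesis genes in each pool, as a percentage of the gene's 48 hpf mean, in pathway order; filled symbols and asterisks mark the 3 members, blue is 48 hpf, orange 56 hpf, and the shape gives the replicate. The 56 hpf pools lie under the 48 hpf pools for the 3 members, as the rule requires, and for the other 6 genes, and the 56 hpf means run from 20.4% (*hmbsb*) to 79.2% (*hmbsa*).

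One globin gene stayed in the set because the files call it *HBQ1*, in capitals, which the name rule does not catch. The symbol table pairs its identifier with *hbae4*, an embryonic alpha globin gene, and the RefSeq table places *hbae4* next to *hbbe3*. Its normalized counts were 168, 286 and 276 at 48 hpf and 30.0, 47.2 and 80.7 at 56 hpf, a 4.62-fold difference between means of 243 ± 65.6 and 52.6 ± 25.8. Replicate 1 was the lowest pool at both stages, and the pools at 56 hpf varied more, relative to their mean, than for any other member. Without it the set has 13 genes.

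Counting *HBQ1*, 9 globin genes were above 3 reads in every pool, of which *HBQ1*, *hbbe3* and *hbz* had passed the thresholds of the rule. In 4 of the other 6 the 56 hpf pools lay under all 48 hpf pools on the deposited scale, against 11.1% of all genes tested on the RLE scale. The alpha globin *hbae3* had 17570, 22742 and 16414 normalized counts at 48 hpf and 2913, 10717 and 14959.5 at 56 hpf, and the beta globin *hbbe1.1* had 5849, 6073 and 4421 against 697, 2473 and 3168. In both, replicate 1 was far below the other 56 hpf pools. Near-identical globin copies can share reads, so single globin values are uncertain.

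A further group concerns the red cell membrane and transport. *slc4a1a* encodes band 3, the chloride-bicarbonate exchanger and main membrane anchor of the red cell. It had 6735, 9333 and 6450.4 normalized counts at 48 hpf and 1266, 1435 and 1753 at 56 hpf. The means of 7506 ± 1588 and 1485 ± 247 were 5.06-fold apart, and its highest 56 hpf pool was 0.272 times its lowest 48 hpf pool.

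*epb41b* encodes protein 4.1, which ties the spectrin skeleton to the membrane. It had 3804, 4784 and 4399.9 normalized counts at 48 hpf and 1268, 975 and 1114 at 56 hpf, and was 3.87-fold lower (4329 ± 494 against 1119 ± 147). Spectrin itself, the beta chain gene *sptb*, is no member: it had 12332, 19668 and 20983 against 9117, 7925 and 7393, and its log2 difference of -1.21 had an adjusted p of 0.0999 in limma. It was called lower without the block (0.0444), by the likelihood ratio test (0.00690), by DESeq2 (0.00185) and without replicate 1 (0.0114), over alternatives that ran up to 0.736. The stages did not overlap for *sptb* either.

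*cahz*, the red cell carbonic anhydrase of the zebrafish, had 3057, 3439 and 2489 normalized counts at 48 hpf and 909.6, 1050.2 and 1111 at 56 hpf. It was 2.93-fold lower, with means of 2995 ± 478 and 1023 ± 103. The gene named *SLC29A1 (2 of 2)*, whose human namesake is a nucleoside transporter of the red cell membrane, had 1108, 1462 and 1129.7 at 48 hpf and 459.8, 446 and 457 at 56 hpf. Its 56 hpf pools were the closest together of all members, with a coefficient of variation of 1.62%, and its means of 1233 ± 199 and 454 ± 7.38 were 2.72-fold apart. The water channel gene *aqp1a.1*, also of the red cell membrane, had a log2 difference of -0.17 and an adjusted p of 0.734 in limma.

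The set holds a blood transcription regulator and a receptor. *blf* (bloody fingers), a zinc finger gene known from zebrafish blood development, had 193, 242 and 258 normalized counts at 48 hpf and 46.6, 88.9 and 89.8 at 56 hpf. It was 3.08-fold lower (231 ± 34.2 against 75.1 ± 24.7), with replicate 1 lowest at both stages. *hdr*, the hematopoietic death receptor of the tumour necrosis factor receptor family, had 293, 315 and 445 at 48 hpf and 112, 72.9 and 115 at 56 hpf. Its means of 351 ± 82.0 and 100.1 ± 23.6 were 3.51-fold apart.

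Of the blood regulators outside the set, *gata1a*, the leading erythroid transcription factor, had 733, 515 and 417 normalized counts at 48 hpf and 231, 198 and 141 at 56 hpf. It fell by 1.65 on the log2 scale (SE 0.21, adjusted p 0.0269 in limma), a call that was lost without replicate 2 (0.332, the highest of alternatives that ran from 6.63e-07). The factors *lmo2*, *nfe2* and *tal1* had log2 differences of -0.82, -0.63 and -0.91 and did not pass (adjusted p 0.145, 0.186 and 0.278 in limma). Without replicate 1, *lmo2* (0.0442) and *tal1* (0.0388) were called lower, and the highest p over the alternatives was 0.828 and 0.870. The listed regulators did not all have negative differences: *gfi1aa* had a positive log2 difference of 1.975, with an adjusted p of 0.202 in limma. Its size depended on the pseudocount, with 1.06 at a pseudocount of 10, and no alternative called it (lowest adjusted p 0.0685, likelihood ratio test). *gfi1b*, *klf4b* and *klfd* had log2 differences of -0.61, -0.55 and -1.22 (adjusted p 0.365, 0.43 and 0.0859 in limma). The likelihood ratio test (0.00398) and DESeq2 (0.0119) called *klfd* lower.

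Leukocytes are represented by *mpx* and *cpa5*. The gene of the neutrophil granule peroxidase, *mpx*, had 1654, 1732 and 2305 normalized counts at 48 hpf and 809.6, 661 and 536 at 56 hpf. It was 2.84-fold lower (1897 ± 356 against 669 ± 137), and the pools ran in opposite order at the stages, with replicate 3 the highest at 48 hpf and the lowest at 56 hpf. *cpa5*, a carboxypeptidase gene used as a mast cell marker in zebrafish, ranged from 206 to 359.7 at 48 hpf and from 55.5 to 95.4 at 56 hpf, with means of 292 ± 78.3 and 73.9 ± 20.1 that were 3.95-fold apart.

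Outside the set, the leukocyte lysozyme gene *lyz* had 5474, 10701 and 11248 normalized counts at 48 hpf and 1886, 3010.3 and 2045 at 56 hpf. It fell by 2.07 on the log2 scale (SE 0.24, adjusted p 0.0198 in limma), a call that was lost without replicate 2 (0.265, the highest of alternatives that ran from 2.21e-10). The myeloid regulator *spi1b* and the leukocyte actin-binding gene *coro1a* had log2 differences of -0.60 and -1.07 and did not pass (adjusted p 0.280 and 0.0811 in limma), although the likelihood ratio test (0.00579) and DESeq2 (0.0132) called *coro1a*, whose alternatives ran up to 0.521. The macrophage genes *mpeg1* and *csf1ra* had positive differences of 0.38 and 0.70, with adjusted p of 0.572 and 0.242 in limma. Without replicate 2 that of *mpeg1* was -0.07. Other macrophage genes of the list were mixed: *marco* had 0.11, *mfap4* -0.60 and *cxcr3.2* -0.76 (adjusted p 0.892, 0.326 and 0.394 in limma). The leukocyte genes *ptprc* and *lcp1* had -0.63 and -0.68 (0.306 and 0.270 in limma). *thbs1b* had the largest positive difference of this list, 1.15, with an adjusted p of 0.144 in limma. The largest negative one was that of the thrombocyte gene *itga2b*, -2.59, with an adjusted p of 0.133 in limma. The likelihood ratio test (0.0177), DESeq2 (0.00494) and limma without replicate 1 (0.0426) called *itga2b* lower, over alternatives that ran up to 0.713. Of the 14 listed leukocyte and thrombocyte genes outside the set, 1 was called lower and 0 higher (0.211% and 0.87% of all genes tested). At an unadjusted p under 0.05 in limma these were 4 and 2 (7.31% and 11.2% of all genes tested). The likelihood ratio test of edgeR called 3 lower (2.58% of all genes tested) and 1 higher.

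The remaining members have no such place. *ch25hl2* is named after the mammalian cholesterol 25-hydroxylase, which makes an oxysterol. It had 199, 212 and 333 normalized counts at 48 hpf and 97.7, 55.7 and 59.8 at 56 hpf, and was 3.49-fold lower (248 ± 73.9 against 71.1 ± 23.2). In the same-numbered pools of replicate 1 the difference was 2.04-fold, and in those of replicate 3 it was 5.57-fold. *znfl2a*, which the files describe only as a zinc finger-like gene, had the largest difference of the set: 653, 607 and 445 against 99.95, 91.1 and 87.0, means of 568 ± 109 and 92.7 ± 6.61, 6.13-fold apart.

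**Figure D3:**
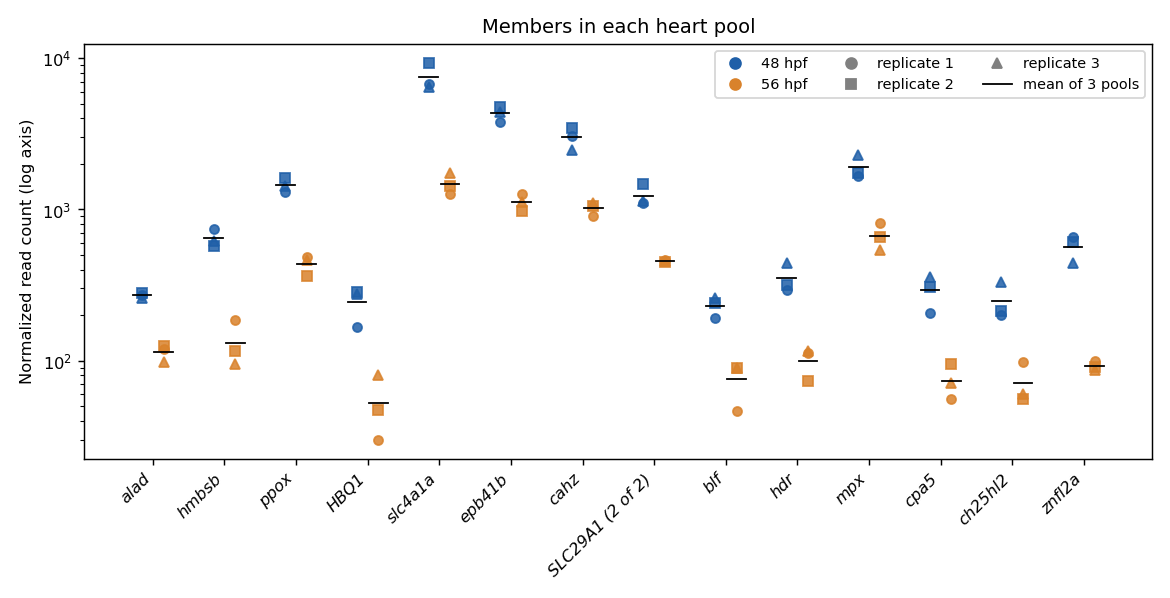
Normalized read count (log axis) of the 14 members in each of the 6 heart pools, blue for 48 hpf and orange for 56 hpf, with the replicate given by the shape and the mean of 3 pools by a bar. The stages are apart for every member, as the rule requires, and the gap between the means runs from 2.37-fold for *alad* to 6.13-fold for *znfl2a*.

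Among themselves the members did not rank the pools alike. At 48 hpf, 9 of the 14 were lowest in replicate 1, and 7 were highest in replicate 2, 5 in replicate 3 and 2 in replicate 1. At 56 hpf, 7 were highest in replicate 1, 2 in replicate 2 and 5 in replicate 3. The median fold between same-numbered pools was 3.18 for replicate 1, 4.06 for replicate 2 and 3.77 for replicate 3. The coefficient of variation between pools had a median of 17.4% at 48 hpf (4.01 to 29.8%) and of 18.6% at 56 hpf (1.62 to 49.0%).

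Of the members, 7 belong to the list of erythroid and heme genes, 1 to that of leukocyte and thrombocyte genes, and the other 6 to none of the 26 lists examined. The erythroid list also holds 25 tested genes outside the set. Of these 2 were called lower and 0 higher (0.211% and 0.87% of all genes tested). At an unadjusted p under 0.05 in limma, 15 were lower and 1 higher (7.31% and 11.2% of all genes tested). In 13 the 56 hpf pools lay under all 48 hpf pools (11.1% of all genes tested). Without the block 6 were called lower (0.596% of all genes tested), and by the likelihood ratio test 11 (2.58%). The 25 genes had a median log2 difference of -0.83 in limma, against -0.01 for all genes tested. For the ratio of deposited means their median was -0.71, against 0.04 for the 9515 genes with a 48 hpf mean of at least 200. The mean log2 level of these 25 genes lay between 8.60 and 8.89 at 48 hpf and between 7.93 and 8.13 at 56 hpf. Set against that level in the same pool, an alternative chosen after seeing the data, the members were 0.58 (*alad*) to 1.92 (*znfl2a*) log2 units lower at 56 hpf. The members met the rule and these 25 genes did not. The direction was therefore largely set by the selection, and no conclusion is drawn from it.

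In bulk samples fewer cells of a type and less RNA per cell cannot be told apart. The summed transcript levels of some marker lists of other cell types also differed between the stages. With the members left out, the summed level of the other 26 erythroid genes found ranged from 28722 to 39476 normalized counts at 48 hpf and from 17632.5 to 18453 at 56 hpf. That of the other 14 leukocyte and thrombocyte genes ranged from 11599 to 17296 and from 8515 to 13256, so that these pools overlapped. This sum mixes genes that went in opposite directions. Of the 14, 10 had a negative difference in limma, among them *lyz* (-2.07), while *thbs1b* had one of 1.15. The skeletal muscle list was higher at 56 hpf, from 15586 to 33553 and then from 35963 to 48357, and 11 of its 21 genes rose. The epidermis list ranged from 187686 to 474104 and from 536126 to 905139, with 1 of 16 genes called higher. Of 14 cartilage genes 5 rose, and of all genes tested 0.87% were called higher. Without replicate 2 only 1 gene outside the set was called over all lists, against 31 with all pools. The myocardial list ranged from 479477 to 1180092 and from 499601 to 594440, with 0 of 21 genes called (3 lower and 0 higher at an unadjusted p under 0.05 in limma, and 1 lower by the likelihood ratio test). Of the 21 genes 20 had a negative difference in limma, against 50.5% of all genes tested, and their median log2 difference was -0.56. The endocardial list ranged from 36835 to 63779 and from 35366 to 45099, and of its 17 genes only *flt1* was called lower, by 1.51 on the log2 scale (SE 0.23, adjusted p 0.0397 in limma, from 2.03e-05 to 0.446 over the alternatives). Of the 17 genes 16 had a negative difference in limma, and their median log2 difference was -0.48. Of 40 cell cycle genes 39 had a negative difference in limma, against 50.5% of all genes tested, and 1, *ccne2*, was called lower. At an unadjusted p under 0.05 in limma, 20 of the 40 were lower and 0 higher (7.31% and 11.2% of all genes tested). In 26 of them the 56 hpf pools lay under all 48 hpf pools (11.1% of all genes tested). The median log2 difference of the cell cycle list was -0.62, so a broad fall was not particular to the erythroid list. Over the 26 lists, the genes outside the set with the largest falls in limma were *pou3f3a*, a neural transcription factor gene (a log2 difference of -4.16, adjusted p 0.0313), and the otic genes *oc90* (-3.35, 0.0387) and *stm* (-2.94, 0.0397). The largest rises were those of *elnb*, an elastin gene (2.66 to 13.9 normalized counts at 48 hpf and 202 to 1723 at 56 hpf, adjusted p 0.00693), the fast muscle troponin gene *tnni2b.2* (1.27 to 1.42 and 144 to 196, 0.00783) and the cartilage matrix gene *matn1* (0 to 12.0 and 165 to 389.8, 0.0391), all with a 48 hpf pool at 3 reads or fewer. No marker of the erythroid, leukocyte, muscle, epidermis, cartilage, myocardial or endocardial list was at 0 in all pools, and the part of these other cells in the members' difference was not tested.

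**Figure D4:**
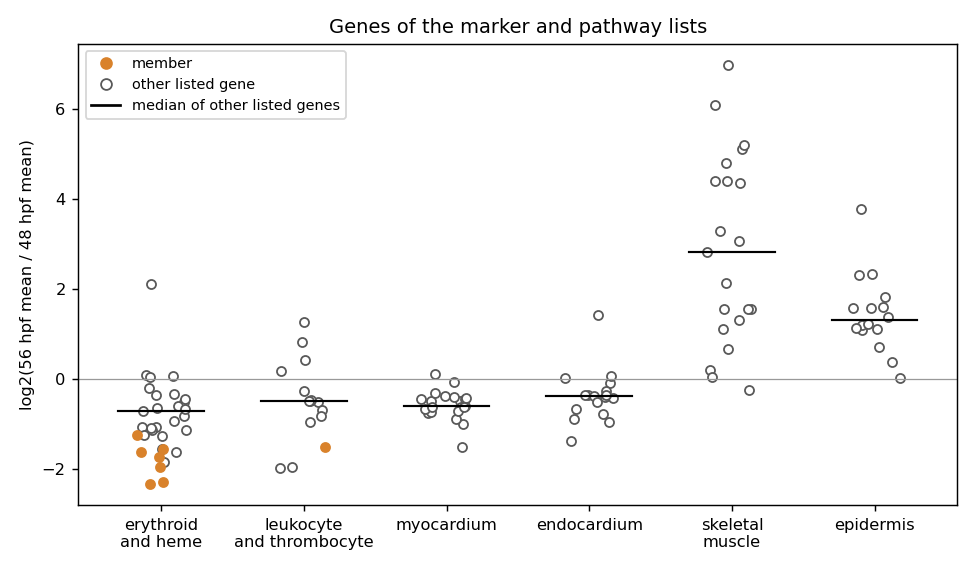
Each point is a listed gene, placed by the log2 ratio of its 56 hpf to its 48 hpf mean (deposited normalized counts); orange points are members, open points other genes, and bars the median of the other genes. The medians are -0.71 for erythroid and heme genes, -0.49 for leukocytes and thrombocytes, -0.59 for myocardium, -0.37 for endocardium, 2.83 for skeletal muscle and 1.31 for epidermis.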

How the data were processed

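RNA from 3 pools of hearts at each stage was sequenced. The methods of the study describe poly(A) selection and alignment to the Zv9 assembly, with uniquely aligned reads counted by HTSeq on Ensembl genes. The labels describe amplified total RNA instead, and the submitters' notes list CASAVA 1.8.2, Bowtie2 2.1.0, HTSeq 0.5.4p3 and DESeq 1.10.1. Whether the counting used strand is not given in the sources used here. The deposited signal is a gene's reads scaled by a size factor of the library, which the authors computed. For 100% of values (tolerance 0.001) it was a whole multiple of the value of 1 read, so reads could be recovered.

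The members were found on the deposited scale. Members and lists were chosen with earlier results of these data known. Listed genes outside the set were tested with limma 3.58.1 (R 4.3.3) on recovered reads divided by RLE size factors, as log2(value + 1), which understates the change of low genes, with a trend and the replicate number as a block. That block stands in by inference for the experiments named in the methods. Genes were kept by filterByExpr (minimum count 10, minimum total 15). Alternatives used edgeR 4.0.16 and DESeq2 1.42.0, other scales, pseudocounts and filters, and each replicate left out. The fits were tested on simulated data. Every member was to be named; values per pool were given for members in a list, the 8 highest at 48 hpf, the 8 with the lowest ratio and the 3 genes nearest each threshold on either side; of other listed genes, the 3 past the threshold with the largest fold change in each direction. *gata1a*, *lyz*, *mpeg1*, *csf1ra*, *thbs1b*, *coro1a*, *spi1b*, *sptb*, *aqp1a.1*, *ccne2*, the globins and the heme and regulator genes that did not pass were named outside that rule, after their values were seen. So were *marco*, *mfap4*, *cxcr3.2*, *ptprc*, *lcp1* and *itga2b*. Symbol-table entries were found for 12 of the 14 members, and RefSeq matches by symbol for 13. The pools are not described as separate clutches, so p-values measure only the spread between pools.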

Additional observations from a re-analysis of the deposited data

How the results depend on the processing

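The median log2 difference of the members lay between -2.01 and -1.74 over its alternatives. Some members moved by at least the SD of their log2 values between pools. Without replicate 3, *mpx* went from -1.50 to -1.20, and without replicate 2, *ppox* went from -1.73 to -1.53. Without replicate 1, *epb41b* went from -1.95 to -2.14 and *ch25hl2* from -1.80 to -2.24. That no member left the set, other than *HBQ1* by name (13 genes), shows no stability: a lower minimum cannot remove a member, a pool left out can only lower the ratio, and RLE and TMM lowered the 56 hpf side. The set grew to 23 genes with RLE and 24 with TMM size factors, to 22 with a minimum mean of 100 and 55 with one of 10, and to between 23 and 124 when a replicate number was left out. Genes called lower (44) numbered 124 without the replicate block, 537 by edgeR's likelihood ratio test, 405 by DESeq2, 79 with no filter, and 1 (without replicate 2) to 667 (without replicate 1) with a number left out. Genes called higher (181) numbered 436 without the block, 1204 by the likelihood ratio test, 1098 by DESeq2, and 6 to 1409 with a number left out. For the erythroid list (2 lower) the counts were 6 without the block, 11 by the likelihood ratio test, 1 by edgeR's quasi-likelihood test, 11 by DESeq2, 4 with no filter, and 0 to 12 with a number left out. For the leukocyte list (1 lower) they were 3 by the likelihood ratio test, 3 by DESeq2, and 0 to 2 with a number left out. Listed genes outside the set that were called in either direction (31) numbered 48 without the block, 123 by the likelihood ratio test, 20 by the quasi-likelihood test, 123 by DESeq2, and 1 to 139 with a number left out. The likelihood ratio test and DESeq2 made more false calls than limma on simulated counts. The cause of these differences was not tested; leaving out a number leaves 2 pools a stage. No member changed direction under an alternative, which shows no stability either, since the rule keeps the pools of the stages apart. The called genes of the erythroid and leukocyte lists, *alas2*, *gata1a* and *lyz*, did not change direction. Their pools did not overlap and they were picked because they were called, so this adds little. For the other called listed genes the direction under the alternatives was not examined. Same-numbered pools did not deviate together (r = 0.03, 0.19 and -0.05 over genes), so the pairing of numbers is not borne out. The block rests on an inference, as the methods name experiments but do not tie them to replicate numbers.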
